A study of Mus musculus with 768 samples.

Results

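The 9 myelin genes described here are Mbp, Mog, Mag, Mobp, Cldn11, Opalin, Ermn, Mal and Cnp, taken by name from a table of 32679 genes counted in single cells of the mouse dentate gyrus, the part of the hippocampus that forms neurons in adulthood. All 9 were present in the table. Wells held cells of 2-month-old male Nestin:GFP mice, sorted singly by a green fluorescent reporter that is driven by regulatory sequence of the stem cell gene Nes and made into libraries with Smart-seq2, a full-length plate method without molecular identifiers. Control mice 1, 3, 5 and 7 had received a negative control oligonucleotide, and mice 2, 4, 6 and 8 a miR-132 mimic, a synthetic form of the microRNA. Every mouse carried the reporter and was given 150 pmol in 3 µl with lipofectamine 2000 once a week for 5 weeks, so the control mice share the carrier and the injections. Sorting took place on 17 April 2018 for mice numbered 1 to 4 and on 19 April for the rest, so each date held both treatments. The series text puts the letters AD before the tissue without saying what they stand for.

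Myelin is the sheath that oligodendrocytes wrap around axons, and its compact layers are held together by a small set of abundant proteins. Mbp encodes myelin basic protein, which joins the inner faces of the membrane, and Mobp a second basic protein of compact myelin. Cldn11 encodes the claudin of the tight junctions in the sheath, and Mal a lipid-raft protein that takes part in membrane sorting. Mag and Mog encode adhesion proteins of the inner and the outermost surface. Cnp encodes a phosphodiesterase of the cytoplasm-filled channels and is used earlier in the lineage than the rest. Ermn encodes a cytoskeletal protein of late differentiation, and Opalin a membrane glycoprotein of mature oligodendrocytes.

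Of 768 wells, 675 had at least 50000 counts and at least 1000 genes and were kept, 75 to 92 per mouse. Median counts per kept well lay between 584740 and 776017 over mice, and summed counts between 4.39e+07 and 6.69e+07. The labels tie wells to mice in 2 ways that conflict: they name the same mouse for 96 wells and the same treatment for 384. The map in the sample descriptions is used throughout. The map by sample title was tried for treatment folds in oligodendrocyte-like and all kept wells and for the oligodendrocyte-like share. It is named where it turns a direction there. It was not tried for treatment in other classes, sort date, well names, the spread over wells or splits of wells by other genes. Clusters were formed without the 9 genes and named from other markers, which gave 301 oligodendrocyte-like wells and 18 wells like their precursors. The rest were 107 endothelial-like, 95 astrocyte-like, 70 pericyte-like, 38 neuroblast-like, 14 smooth muscle-like and 16 fibroblast-like wells. Another 16 wells with over 6000 genes, 2 per mouse, were put in no class. From each mouse 94 cells were sorted by the labels, while 96 columns belong to it, and what the remaining 2 wells hold is not stated. Of the oligodendrocyte-like wells, 298 had at least 13 of the 18 class markers at 10 CPM or more, where CPM is a gene's count scaled to a fixed total per well. The other 3, in mice 2, 3 and 5, had 0 to 3 of the markers. By the markers alone 2 of these would be astrocyte-like and 1, with 11613 CPM of the microglial gene C1qb, microglia.

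The mature strand of miR-132 and the promoters of 4 of the genes are shown because the first is what was injected in mimic form, and because these 4 genes differ below in where they were counted. The microRNA lies at chr11:75173723-75173744 (plus strand, GRCm38.p6), and its seed, bases 2 to 8, is in capitals.
mmu-miR-132-3p: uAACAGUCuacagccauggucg
The 7-base complement of this seed, GACTGTT, was found in the longest annotated 3′ UTR of 0 of the 9 genes.

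Promoters, from 250 bases before to 50 after the start, were taken from RefSeq on GRCm38.p6, which held 10 of them for 8 of the 9 genes. Capitals mark ACAAAG, the core of sites for SOX factors such as Sox10, and GGGCGG, the GC box, on either strand. Opalin lies at chr19:41077064-41077363 (minus strand), Mobp at chr9:120149492-120149791 (plus), Mal at chr2:127656646-127656945 (minus) and Cnp at chr11:100574689-100574988 (plus).
Opalin: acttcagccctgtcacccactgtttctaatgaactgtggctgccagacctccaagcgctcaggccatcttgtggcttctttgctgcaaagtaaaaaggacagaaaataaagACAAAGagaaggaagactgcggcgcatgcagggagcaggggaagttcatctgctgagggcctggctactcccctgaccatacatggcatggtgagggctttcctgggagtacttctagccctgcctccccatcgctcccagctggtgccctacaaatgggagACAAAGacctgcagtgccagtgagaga
Mobp: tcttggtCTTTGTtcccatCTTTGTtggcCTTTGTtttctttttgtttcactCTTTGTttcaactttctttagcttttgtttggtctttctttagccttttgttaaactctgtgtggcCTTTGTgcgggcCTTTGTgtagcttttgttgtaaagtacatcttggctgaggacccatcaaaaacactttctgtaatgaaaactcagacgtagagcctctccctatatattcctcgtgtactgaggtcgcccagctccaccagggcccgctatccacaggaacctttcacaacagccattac
Mal: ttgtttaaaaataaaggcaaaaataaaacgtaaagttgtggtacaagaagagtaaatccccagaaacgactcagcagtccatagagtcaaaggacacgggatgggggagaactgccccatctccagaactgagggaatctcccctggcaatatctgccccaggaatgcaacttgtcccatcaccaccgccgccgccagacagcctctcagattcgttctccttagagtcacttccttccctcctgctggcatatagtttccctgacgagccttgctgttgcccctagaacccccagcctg
Cnp: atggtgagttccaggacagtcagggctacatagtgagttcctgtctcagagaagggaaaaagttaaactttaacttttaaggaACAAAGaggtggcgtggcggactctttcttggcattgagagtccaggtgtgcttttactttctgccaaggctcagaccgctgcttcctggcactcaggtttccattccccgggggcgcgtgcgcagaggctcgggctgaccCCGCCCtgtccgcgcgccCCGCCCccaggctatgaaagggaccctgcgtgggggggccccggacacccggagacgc
ACAAAG matched 6 times in the Mobp promoter, 2 times in that of Opalin, 1 time in that of Cnp and 0 times in that of Mal. By gene, 4 of 8 had a promoter with ACAAAG and 2 of 8 one with GGGCGG. Of all 10 promoters 5 held ACAAAG, with 1 site counted 2 times in overlapping promoters of Mag, and 2 held GGGCGG. Among 32851 mouse promoters of the same length these shares were 18.7% and 35.7%. The motifs did not overlap in the sequences shown. A match is a description of letters and not a measured binding site.

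The 9 genes together took 5.51% ± 0.303 (SD, n = 8 mice) of all counts in oligodendrocyte-like wells, from 5.01% to 6.04% over mice. Per length of annotated exons, Cnp was at 3414 ± 297 CPM per kilobase (mean ± SD over 8 mice), Cldn11 at 3214 ± 348 and Mal at 2203 ± 140. Mbp followed at 1732 ± 148, Mog at 1443 ± 83.1 and Mag at 1179 ± 151 CPM per kilobase. Mobp at 784 ± 64.9, Opalin at 583 ± 125 and Ermn at 419 ± 34.4 were the lowest. The ranges over mice did not overlap between Cldn11 and Mal, between Mal and Mbp, or between Mag and Mobp. Those of all other neighbours in this order overlapped, and Cnp was above Cldn11 in 6 of 8 mice. The place of Mbp depends on the length used, because its 16 annotated transcripts cover 8469 exonic bases and the longest has 4797. By the longest transcript Mbp was at 3058 ± 261 CPM per kilobase, above Mal, and Mag at 1972 ± 253 and Mobp at 1635 ± 135 were both above Mog, so the order of these genes is not settled by the counts. The Mbp gene also encodes Golli proteins, and the counts do not separate these transcripts from those of myelin basic protein.

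On mm10 with the GENCODE M21 annotation, Cnp spans chr11:100574904-100591729 (plus strand), Mal chr2:127633226-127656695 (minus), Opalin chr19:41061710-41077113 (minus) and Mobp chr9:120149707-120181484 (plus). In the opposite direction to the gene, exons of Dnajc7 share 154 bases with Cnp, and exons of Galnt5 share 237 bases with Ermn. Smart-seq2 does not mark strand, so such reads cannot be told apart. In oligodendrocyte-like wells Dnajc7 was at 137 CPM and Galnt5 at 1.56 CPM, small beside the 12371 CPM of Cnp and the 1527 CPM of Ermn. The level of Dnajc7 was not examined in the other classes, where Cnp was lower.

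Nearly every oligodendrocyte-like cell held every one of the 9 transcripts. In the 298 wells with the class markers, 8 genes were above 50 CPM in all wells, and Opalin was under 50 CPM in 1 well. The genes differed in how evenly they were held. Mbp ranged from 9146 CPM at the 5th to 20932 CPM at the 95th percentile of the 301 wells, a ratio of 2.29, and Cnp had a ratio of 2.25. Opalin ranged from 454 to 3220 CPM, a ratio of 7.09. The coefficient of variation over the 298 wells was 24.8% for Cnp, 25.3% for Mbp and 29.1% for Cldn11. It was 33.6% for Mag, 34.4% for Mal, 35.4% for Mobp, 38.9% for Ermn, 40.1% for Mog and 52.7% for Opalin. Counting error of reads alone would give 1.09% for Mbp and 7.05% for Opalin. The Opalin value is raised by the 1 well without an Opalin read, which was entered as 1 read. Without molecular identifiers, noise of capture and amplification is not part of these values and was not measured. Among the 89 genes with at least 1000 CPM in these wells, the median coefficient was 45.5%, and 8 of the 9 lay below it. The 89 genes were not matched for level, and the means of the 9 ran from 1542 CPM for Ermn to 14972 CPM for Mbp. Opalin ranked 23rd of 89 from the most variable.

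**Figure D1:**
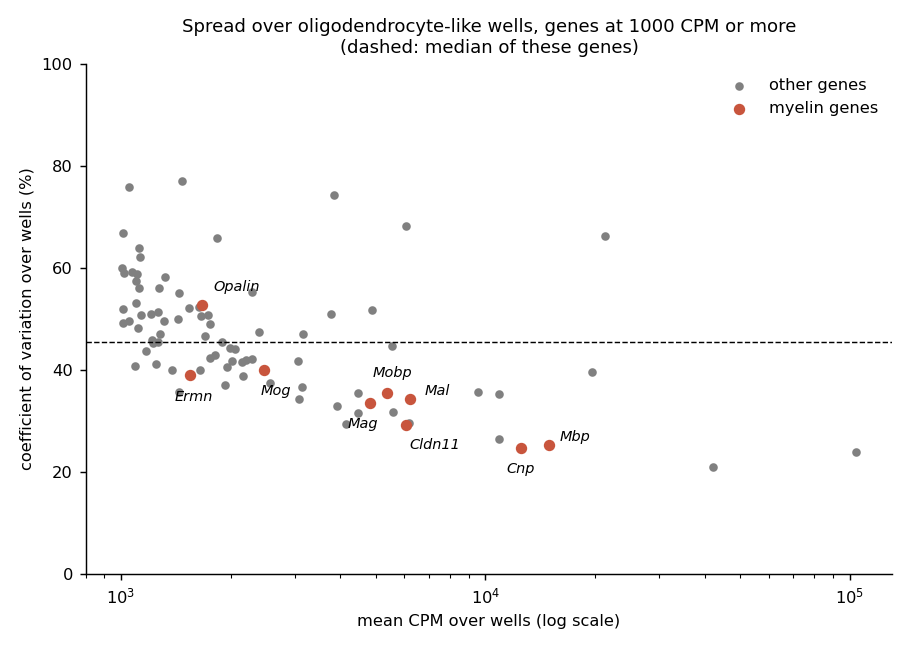
Coefficient of variation over 298 oligodendrocyte-like wells (percent) against mean CPM (log scale) for genes with at least 1000 CPM, with the myelin genes in red and 2 genes above 100% outside the range. Cnp, Mbp and Cldn11 lie lowest of the myelin genes, at 24.8% to 29.1%, and Opalin alone lies above the dashed median of 45.5%.

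From cell to cell the genes hardly moved together. The Spearman correlation over the 298 wells had a median of 0.066 over the 36 pairs of genes, from -0.12 for Mbp with Opalin to 0.32 for Cldn11 with Mal, and 5 pairs were above 0.2. The median within mice was 0.062. The correlation of the 9 genes with total counts of the well lay between 0.010 and 0.16, and with the number of genes detected between -0.20 and 0.19. The wells share plates and sequencing, so these values are descriptions. Of 1608 other genes counted in at least 50% of the 301 wells, those most like the mean of the 9 included Coro1c at 0.26, Actb at 0.26 and Cd81 at 0.25. Map6d1, Phyhipl, Ywhaq and Lgi3 were at 0.21 to 0.20. The lowest were Mir6236 at -0.30, the mitochondrial ribosomal RNAs mt-Rnr2 at -0.24 and mt-Rnr1 at -0.23, Eml1 at -0.23 and Gm15564 at -0.21. All of these are weak, and 4 of the 8 highest stayed among the highest when correlations were averaged within mice.

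Opalin was also the gene that varied most between mice relative to its mean. It was at 1212, 1977, 1842 and 2040 CPM in control mice 1, 3, 5 and 7, and at 1213, 1548, 1718 and 2197 CPM in mimic mice 2, 4, 6 and 8. Control mouse 1 and mimic mouse 2, both sorted on 17 April, were the lowest, and the treatments overlapped over nearly their whole range. Its coefficient of variation over the 8 mice was 21.5%, against 5.76% for Mog to 12.8% for Mag among the other 8 genes.

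The mimic was compared with the control to see whether miR-132 changed these transcripts within oligodendrocyte-like cells. No myelin gene passed the test, and the values of mimic and control mice overlapped for each. Mbp was at 16327, 13053, 14776 and 13364 CPM in control mice 1, 3, 5 and 7, and at 16036, 13924, 15755 and 14129 CPM in mimic mice 2, 4, 6 and 8. The highest value was in a control mouse and the spread was alike in both groups. For Mobp, control mice were at 4825, 5555, 4856 and 5323 CPM and mimic mice at 5119, 6171, 5505 and 5615 CPM. Mimic mice lay on the high side, but the lowest of them was below 2 of the controls. Cnp was at 12956, 11069, 12908 and 12381 CPM in control mice and at 11651, 11022, 13782 and 13605 CPM in mimic mice. Mimic mice held both the lowest and the highest Cnp values. Mal was at 5925 ± 345 CPM in control and 6315 ± 364 CPM in mimic mice (SD, n = 4 each), Mag at 4730 ± 617 and 4871 ± 698, and Mog at 2452 ± 198 and 2465 ± 87.6. Cldn11 was at 5703 ± 293 CPM in control and 6317 ± 806 in mimic mice, and Ermn at 1472 ± 105 and 1577 ± 134.

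The log2 fold of mimic over control (edgeR quasi-likelihood test on counts summed per mouse, sort date as covariate, ± SE) was 0.017 ± 0.096 for Mbp, 0.090 ± 0.085 for Mobp, 0.10 ± 0.11 for Cldn11 and 0.060 ± 0.088 for Mal. It was 0.049 ± 0.12 for Ermn, -0.0052 ± 0.10 for Mag, -0.015 ± 0.10 for Mog, -0.017 ± 0.081 for Cnp and -0.14 ± 0.17 for Opalin. The Benjamini-Hochberg adjusted p was 0.999 for all 9. Their median fold was 0.017, against 0.0055 over all 7403 genes tested. The 95% intervals of the 9 lay within -0.51 and 0.34, so a doubling or halving of any of them lies outside its interval, which a p above the threshold would not show by itself. The test called 0 of 7403 genes, a background of 0%, with 221 genes at an unadjusted p under 0.05 and none of the 9 among them. DESeq2 called 3 genes and edgeR without a filter on low counts 18, none of them a myelin gene. Groups of mimic and control mice did not overlap for 191 genes, or 2.58% of those tested, and for 0 of the 9. On simulated counts the same test recovered 8% of 2-fold and 40.4% of 4-fold changes over genes of all levels. The changed genes were drawn from all those tested. Recovery at the levels of the 9 genes was not computed, so these shares do not apply to them.

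**Figure D2:**
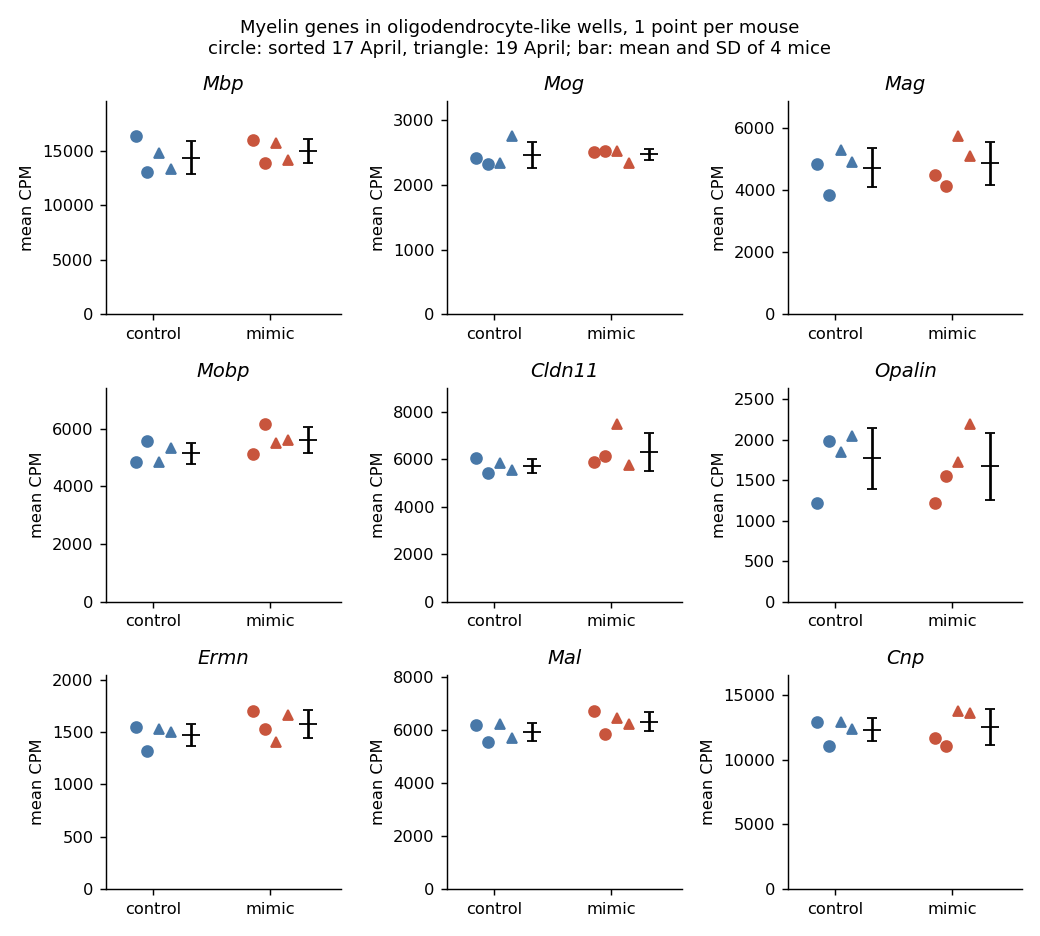
Mean CPM of each myelin gene over the oligodendrocyte-like wells of each mouse, with circles for mice sorted on 17 April, triangles for 19 April, and bars for the mean and SD of 4 mice. Control and mimic mice overlap in every panel, and Opalin, from 1212 to 2197 CPM, spreads most relative to its mean.

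None of the partner lists held a called gene, and the lists were not tested against each other. Of 16 other myelin proteins, all were tested, 7 were higher, 9 lower and 0 called, with a median log2 fold of -0.034. The nearest to a call was Cd9, a tetraspanin, at 839 ± 117 CPM in control and 984 ± 165 in mimic mice. Of 15 genes of myelin lipid synthesis 6 were higher, 9 lower and 0 called (median -0.061), with Scd1, a fatty acid desaturase, at 84.8 ± 16.7 CPM in control and 60.0 ± 18.3 in mimic mice. Of 10 regulators 2 were higher, 8 lower and 0 called (median -0.17), with Myrf, the factor that drives myelin genes, at 245 ± 31.0 and 223 ± 96.2 CPM. Of 4 tested genes of newly formed oligodendrocytes 2 were higher and 2 lower, and of 9 of late mature ones 6 were higher and 3 lower, again with 0 called. Il33, a cytokine of mature oligodendrocytes, was at 1574 ± 303 CPM in control and 2123 ± 617 in mimic mice, with an adjusted p of 0.999 in edgeR, as for all genes named here.

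How much the cells of a mouse varied did not pass a test either. The SD over wells of log2(CPM + 1) was compared between 4 control and 4 mimic mice with 9 exact two-sided permutation tests over the 70 splits, whose smallest possible p is 0.0286. In the 298 wells with the class markers the lowest p was 0.0571, unadjusted, for Mbp, whose SD had a mean of 0.392 in control and 0.327 in mimic mice. With all 301 wells the 3 wells low in class markers set the SD of their mice, and the lowest exact p was 0.229, for Mog.

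Summed over all kept wells, every myelin gene was lower in mimic mice, with log2 folds from -0.097 for Cldn11 to -0.34 for Opalin and a median of -0.18, against 0.00042 over all 8829 genes tested. None passed (edgeR, adjusted p of 0.999 or more for each). That test called 0 genes (0%), with 394 at an unadjusted p under 0.05, and DESeq2 called 12. The groups did not overlap for 2.33% of genes and for 0 of the 9. In such sums fewer cells of a type and less RNA per cell cannot be told apart. Oligodendrocyte-like wells were 60.9%, 54.8%, 55.4% and 27.5% of the classed wells in control mice 1, 3, 5 and 7, and 47.8%, 52.1%, 36.9% and 31.5% in mimic mice 2, 4, 6 and 8. Control mouse 7 was the lowest and the groups overlapped. The difference of mimic minus control was -7.61 percentage points (exact two-sided permutation test, p = 0.429), -7.94 on 17 April and -7.28 on 19 April. The share was 53.9% over mice of 17 April and 37.8% over mice of 19 April, a larger gap than that between treatments. Permuted within dates, over 36 splits with a smallest possible p of 0.0556, the exact p was 0.389. Within the class the median fold was 0.017, as above. Without control mouse 5, 6 of the 9 folds over all wells turned positive, at 0.018 to 0.11. Without control mouse 7 the share differed by -15.0 points and without control mouse 1 by -3.86. By the sample titles all 9 folds over all wells were positive, at 0.13 to 0.30, and the share differed by 6.08 points. The reporter gate sets which cells enter these shares.

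Sort date and the prefix of the well names were examined after the values were seen. Mag was at 4335 CPM over mice of 17 April and 5266 over mice of 19 April, a log2 fold of 0.26 ± 0.10 (edgeR, unadjusted p = 0.0287, adjusted p = 0.998). Opalin, at 1488 and 1949 CPM, had the largest date fold of the 9, 0.36 ± 0.17 (edgeR, unadjusted p = 0.0582, adjusted p = 0.998). The date test called 0 of 7403 genes (0%, 282 at an unadjusted p under 0.05). Well names begin with L7 in mice 1, 2, 5 and 6 and with L8 in mice 3, 4, 7 and 8, which the labels do not explain. Mbp was lower under L8 in edgeR by a log2 fold of -0.23 ± 0.054 (unadjusted p = 0.00248, adjusted p = 0.389). Opalin was higher by 0.38 ± 0.11 (unadjusted p = 0.00913, adjusted p = 0.670). Mag was lower under L8 by -0.20 ± 0.070 (edgeR, unadjusted p = 0.0191, adjusted p = 0.670). Of the 9 genes, 7 were lower and 2 higher under L8. That test called 0 of 7453 genes (0%), with 536 at an unadjusted p under 0.05, 3 of them among the 9. With date and prefix both in the fit, the mimic fold was 0.091 for Mobp and 0.059 for Mal in edgeR (adjusted p = 0.999 for both), and 0 genes were called. Each date and prefix holds 1 control and 1 mimic mouse, and the mimic mouse was higher in 4 of 4 such pairs for Mobp and Mal, in 3 of 4 for Mbp, Mog, Mag, Cldn11 and Ermn, and in 2 of 4 for Opalin and Cnp. An exact two-sided test over 4 pairs cannot pass a threshold of 0.05, and nothing in the labels says that these mice are pairs. The mimic fold did not pass a test of its difference between dates for any myelin gene, with adjusted p from edgeR of 0.9998 and 0 of 7453 genes called (0%, 242 at an unadjusted p under 0.05).

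Enpp6, an enzyme of newly formed oligodendrocytes, was at 50 CPM or more in 57 of the 298 wells, 2 to 13 per mouse, and 7 wells lay between 25 and 100 CPM. Opalin was lower in these wells than in the 241 others in 8 of 8 mice, at 1300 ± 460 against 1830 ± 364 CPM (SD, n = 8 mice). Summed per mouse with the mouse as a block, its log2 fold was -0.64 ± 0.17 and did not pass over all genes (edgeR, unadjusted p = 0.00293, adjusted p = 0.472). Mal was at 5630 ± 754 CPM with Enpp6 and 6295 ± 409 without, lower in 6 of 8 mice. Its fold was -0.28 ± 0.078 (edgeR, unadjusted p = 0.00452, adjusted p = 0.501), and the other 7 lay between -0.25 and 0.14. Mbp had a fold of -0.14 at nearly equal means of 14757 and 14789 CPM, so these folds and the CPM means are not on the same scale. The fit called 10 of 7260 genes (0.138%) and 0 of the 9. Its median over all genes was -0.59, over the 9 genes -0.14 and over the other myelin proteins -0.030. The median was -0.019 over myelin lipid synthesis, -0.39 over regulators, -0.39 over newly formed and 0.14 over late mature genes. Genes were not matched for level, so the median over all genes is no measure for Opalin. How many genes were lower in 8 of 8 mice was not counted. Wells with Enpp6 had a median of 3142 genes against 2880. Leaving out 1 mouse left 2 to 5 genes called. Among the partners the fit called 3 genes. Ptgds stayed called without any of the 8 mice, Anln in 1 of the 8 fits and Pmp22 in 0, with edgeR adjusted p up to 0.167 for both. Pmp22, a myelin membrane protein, was at 718 ± 182 CPM with Enpp6 and 331 ± 72.4 without, and Anln, a cytoskeletal scaffold, at 616 ± 230 and 251 ± 72.3. Ptgds, a prostaglandin synthase of mature oligodendrocytes, was at 10225 ± 3807 and 24570 ± 4998 CPM. The split by Enpp6 was chosen after values were seen.

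Precursor-like cells held part of the set of myelin transcripts. The 18 wells fell into 12 with Pdgfra, the growth factor receptor of precursors, and 6 without Pdgfra or Cspg4 counts, which had Enpp6 at 1359 to 8090 CPM and Gpr17, a receptor of committed precursors, at 1928 to 10776 CPM. This split was made after values were seen and is not tested. In the 12 wells with Pdgfra, Cnp reached 50 CPM in 10 wells, with a median of 524 and a highest value of 2170 CPM. Mbp reached 50 CPM in 2 of the 12, at 280 and 335 CPM, and the other 7 genes in none.

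In the 6 wells without Pdgfra, Cnp was at 2977 to 13729 CPM in all 6. Mbp was at 0, 1184, 2219, 13510, 14502 and 20195 CPM, so the upper 3 of these wells lay in the range of oligodendrocyte-like wells. Cldn11 reached 50 CPM in 5 wells, up to 4100 CPM, Mag in 4, up to 4795 CPM, and Mog in 3, up to 1201 CPM. Mobp did so in 1 well, at 197 CPM, and Opalin, Ermn and Mal in none. Mal had a single well at 1.12 CPM, and Ermn and Opalin were at 0 in all 6. With 3 counts taken as the upper limit when 0 are seen, 0 of 6 wells allows a share of cells with Opalin of up to 50%. The same rule gives 16.7% for 0 of 18, with both kinds of wells pooled. These are rough bounds at so few wells, pool the mice and cover counting error alone.

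**Figure D3:**
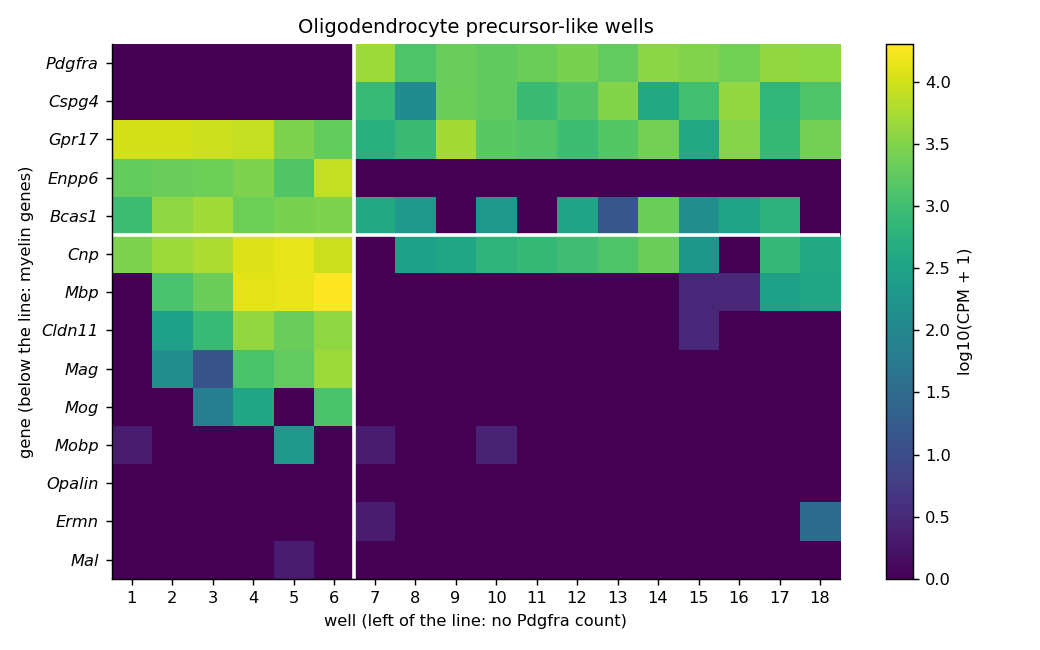
CPM on a log10(CPM + 1) scale in the 18 precursor-like wells, with lineage genes above and myelin genes below the white line, and wells without Pdgfra counts to the left. Wells are ordered by Mbp within each side. Cnp is present in 16 wells, Mbp, Cldn11, Mag and Mog reach high values on the left side alone, and Opalin, Ermn and Mal stay below 50 CPM on both sides.

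Outside the lineage 6 of the genes were near absent. Mog, Mag, Mobp, Cldn11, Opalin and Ermn had mean levels of 0 to 7.16 CPM in the 6 classes from astrocyte-like to fibroblast-like, and a count in 0% to 21.4% of wells of a class. Thinned to 50000 counts, that share was 0% to 7.14%. Of these 340 wells, 2 had any of the 6 genes at 50 CPM or more, and in both, astrocyte-like and from different mice, it was Mobp, at 227 and 426 CPM with no Mbp count. The sum of the 7 genes other than Mal and Cnp over these wells was 10.3 ± 13.4 CPM (SD, n = 8 mice), and 5.71 CPM without control mouse 1, the highest at 42.2 CPM.

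Low counts of all 9 genes were spread over these classes. Below 50 CPM, each gene had a mean of 0.0047% to 0.011% of its level in oligodendrocyte-like wells. Mbp made up 27.3% of these low reads and 26.8% of the reads in oligodendrocyte-like wells, Cnp 24.6% and 22.5%, and Opalin 3.18% and 3.05%. Mal made up 15.7% and 11.2%, and Mag 5.36% and 8.68%. The source of such reads was not tested, and shares of wells with a count at this level are not read as expression.

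Mal in endothelial-like cells was far above that level. It had a mean of 472 CPM and a median of 196 CPM, up to 2164 CPM, and a count in 62.6% of 107 wells (median depth 574174 counts), against 17.1% of 70 pericyte-like wells (625801 counts). It reached 50 CPM in 59 wells, with a median of 435 reads, and in 0 wells of the 5 other classes outside the lineage. None of the 59 had Mbp at 50 CPM, which allows a share of up to 5.08%. Cldn5, the claudin of endothelial junctions, was at 13465 CPM in wells with Mal at 50 CPM and 11695 CPM in the other wells. Every mouse had such wells.

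By mouse, Mal in endothelial-like wells was at 368, 257, 500 and 385 CPM in control mice 1, 3, 5 and 7, and at 520, 721, 482 and 433 CPM in mimic mice 2, 4, 6 and 8. Mimic mice lay higher, but 2 of them were below control mouse 5. Its log2 fold was 0.44 ± 0.36 in edgeR (unadjusted p = 0.252, adjusted p = 1), against a median of 0.24 over the 5980 genes tested, of which 0 were called (0%, 91 at an unadjusted p under 0.05). The interval of that fold ran from -0.37 to 1.24, and the number of wells behind a mouse from 4 to 23.

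Cnp reached 50 CPM in wells of 5 of the 6 classes outside the lineage. In astrocyte-like wells it had a mean of 225 CPM, reached 50 CPM in 37 of 95 wells and went up to 1810 CPM. None of the 37 had Mbp at 50 CPM, which allows up to 8.11%. Among the 37 were the 2 astrocyte-like wells with Mobp at 227 and 426 CPM, where Cnp was at 325 and 396 CPM. In smooth muscle-like wells it had a mean of 168 CPM and reached 50 CPM in 5 of 14 wells. It did so in 7 of 107 endothelial-like, 3 of 38 neuroblast-like, 2 of 70 pericyte-like and 0 of 16 fibroblast-like wells. How many of these Cnp reads came from the 154 bases shared with exons of Dnajc7 was not tested. Astrocyte-like wells held Cnp at 0.537, 195, 265 and 294 CPM in control mice 1, 3, 5 and 7 and at 150, 190, 302 and 344 CPM in mimic mice 2, 4, 6 and 8. Control mouse 1, with 7 such wells, stood apart. The log2 fold was 0.36 ± 1.04 in edgeR (adjusted p = 0.999), -0.13 without control mouse 1 and 1.54 without control mouse 3, and 0 of 7575 genes were called (0%, 136 at an unadjusted p under 0.05).

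Mbp was at 50 CPM or more in 5 wells outside the lineage, without the other genes. These were 1 astrocyte-like well at 940 CPM, 3 neuroblast-like wells at 301, 127 and 73.5 CPM and 1 endothelial-like well at 196 CPM. The highest of the other 8 genes in any of them was 3.47 CPM. These wells are named because they stood apart once values were seen.

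**Figure D4:**
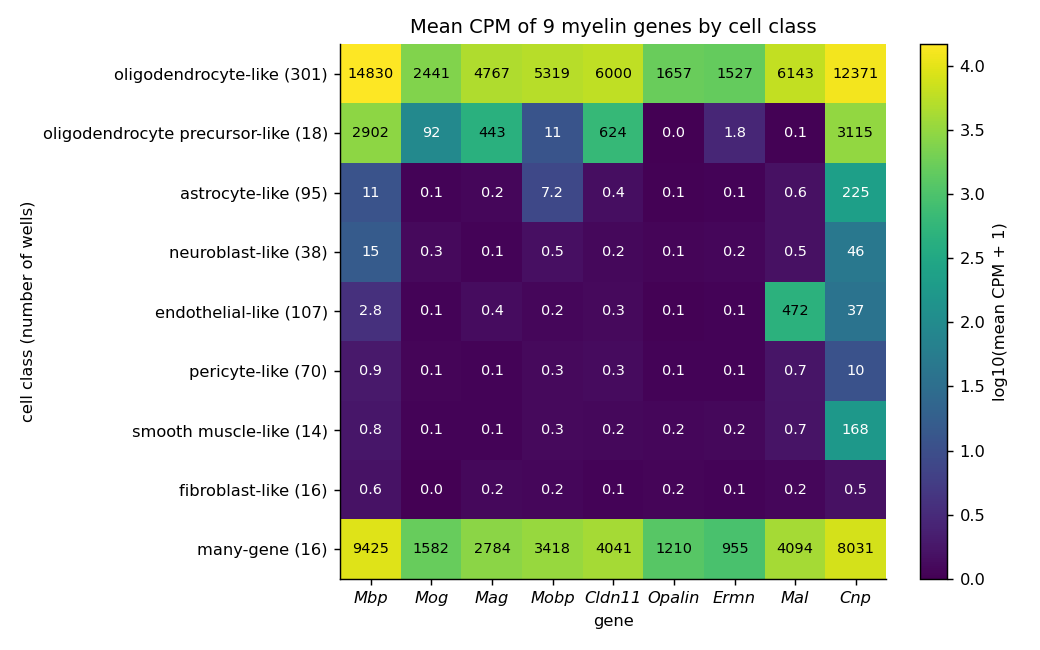
Mean CPM of each myelin gene in each cell class, colored by log10(mean CPM + 1), with the number of wells in brackets. All 9 genes are high in the oligodendrocyte-like row and in the 16 many-gene wells, and outside the lineage the entries that stand out are Mal in endothelial-like wells at 472 CPM and Cnp in astrocyte-like and smooth muscle-like wells at 225 and 168 CPM.

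**Figure D5:**
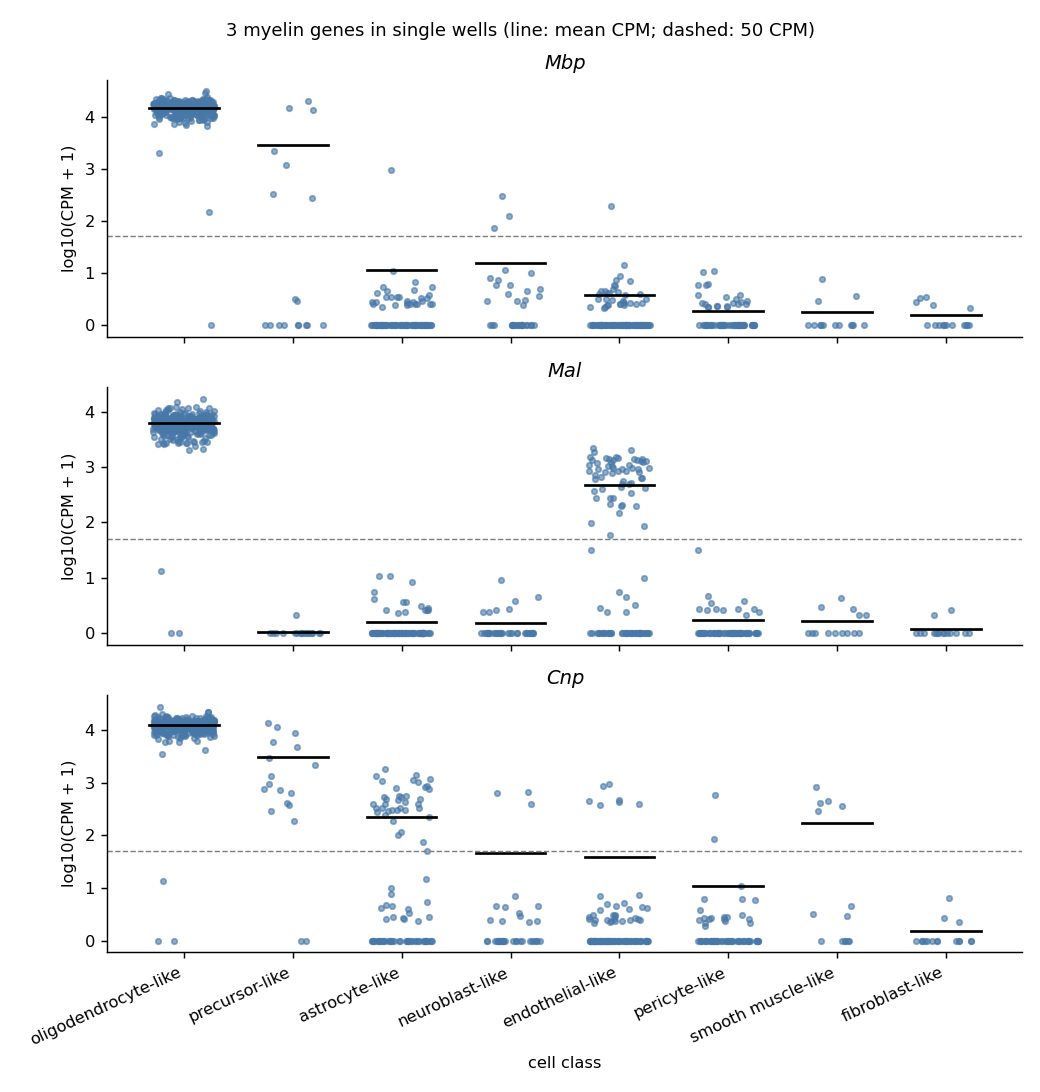
Mbp, Mal and Cnp in single wells by class on a log10(CPM + 1) scale, 1 point per well, with lines for mean CPM and a dashed line at 50 CPM. Mal lies above the dashed line in 59 of 107 endothelial-like wells, Cnp lies above it in 37 of 95 astrocyte-like wells, and Mbp in 5 wells outside the lineage.

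In the 16 many-gene wells the 9 genes had 58.4% (Mag) to 73.0% (Opalin) of their mean level in oligodendrocyte-like wells, and all 16 held all 9 above 50 CPM. Their coefficient of variation, 15.5% for Mal to 30.4% for Opalin, was below that over single oligodendrocyte-like wells for each gene.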

How the data were processed

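Smart-seq2 libraries of single Nestin:GFP cells were read on a NextSeq500, as stated per the labels' protocols. The deposited table holds raw read counts per gene, whole numbers that the authors did not normalise. Mouse build mm10, featureCounts 1.5.1 (Subread), STAR, Seurat 2.3.1 and FastQC are named per the submitters' processing notes, and their settings are not given in the sources used here. Strand is not marked by the kit.

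CPM per well was computed from all counts of the well. Kept wells entered Leiden clustering (scanpy 1.11.5, resolution 1, 2000 variable genes, 20 components, 15 neighbours) without the 9 genes and 16 other myelin genes. No doublet caller was run. Clusters were named from markers, and clusters within a class were not compared, because their borders moved with numerical precision while class sizes did not. Counts summed per mouse were tested with edgeR 4.0.16 (TMM, sort date, Benjamini-Hochberg, threshold 0.05, only genes counted in 10% of wells or more), and DESeq2 1.42.0 was an alternative. Single values per mouse were compared with exact permutation tests. No value is adjusted over the 9 genes alone. Both scripts of fits were tested on simulated data. Exon lengths and 3′ UTRs come from GENCODE M21, promoters and the microRNA from RefSeq. The text names all 9 genes, at most 3 genes per partner list by smallest p, and the 8 most and 5 least similar genes, of which 1 is not reported here. The 9 genes, the lists and the tests were chosen with earlier results of these data known. The 50 CPM threshold, the splits by Pdgfra and Enpp6, and the tests of date and well prefix were set after values were seen. The labels do not say whether more than 1 sort was made per mouse, and the mouse is the replicate. Intervals and limits from counts of 0 cover counting error only.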

Additional observations from a re-analysis of the deposited data

Results flagged for a closer look

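Among 24 groups of 4 mice examined for a value far from the others, 1 stood out: Mog in oligodendrocyte-like wells of mimic mouse 8, at 2334 CPM, with the other 3 mimic mice between 2503 and 2513 CPM. The group's whole range was small, and chance flags about 1 in 20 such groups. In the wells that were not kept, 25 of 93 had the 9 genes at 1000 CPM or more together, with a median of 15800 CPM, and 24 of the 25 had fewer than 1000 genes. These wells enter no comparison. In the 18 wells under 5000 counts, 11 of 25321 reads were of the 9 genes.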

How the results depend on the processing

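For treatment in oligodendrocyte-like cells edgeR called 0 genes, DESeq2 3 and edgeR with no filter on low counts 18, and in all kept wells these were 0, 12 and 84; leaving out any mouse gave 0 calls in both. No myelin gene was called under any setting. The fold of Mag in oligodendrocyte-like wells changed sign with DESeq2 size factors (0.0018), DESeq2 (0.0018) and the title map (0.0025), and that of Cldn11 with the title map (-0.0035). Leaving out 1 mouse, the folds there ranged from -0.040 to 0.089 for Mbp, -0.067 to 0.044 for Mog, -0.062 to 0.072 for Mag, -0.0021 to 0.17 for Cldn11, -0.25 to 0.042 for Opalin, -0.019 to 0.11 for Ermn and -0.050 to 0.046 for Cnp, each including a change of sign. Mobp (0.056 to 0.12) and Mal (0.0033 to 0.11) kept theirs. Over all kept wells the title map gave 0.20 for Mbp, 0.17 for Mog, 0.19 for Mag, 0.26 for Mobp, 0.21 for Cldn11, 0.13 for Opalin, 0.30 for Ermn, 0.24 for Mal and 0.19 for Cnp, all of opposite sign. Leaving out 1 mouse there gave -0.35 to 0.055 for Mbp, -0.38 to 0.018 for Mag, -0.24 to 0.064 for Mobp, -0.27 to 0.11 for Cldn11, -0.31 to 0.047 for Ermn and -0.30 to 0.080 for Mal, each positive without control mouse 5. The cause was not tested. The share of oligodendrocyte-like wells differed by -15.0 to -3.86 points leaving out 1 mouse, and by 6.08 points with the title map. The spread over wells gave 0 members below an unadjusted p of 0.05 leaving out any mouse. The sum of the 9 genes was 5.43% to 5.58% of counts leaving out 1 mouse and 6.28% with 18S and mitochondrial genes left out of the total. The background sum of 7 genes in other classes was 5.71 to 11.5 CPM leaving out 1 mouse. Of the 8 genes most like the 9, 4 remained with correlations averaged within mice. The highest level per length was 8.14 times the lowest, and 10.2 times by the longest transcript. Thinned to 50000 counts, 44.2% of astrocyte-like wells had a Cnp count (55.8% unthinned) and 2.86% of pericyte-like wells an Mbp count (31.4%). Cnp in astrocyte-like cells had folds of -0.13 to 1.54 leaving out 1 mouse, and Cldn11 in wells with Enpp6 -0.00090 to 0.064. Leaving out 1 mouse moved the genes called with Enpp6 from 10 to between 2 and 5. No paired analysis was possible because the treatments share no replicate numbers in the labels, but a fit with sort date and well prefix, in which each combination holds 1 mouse of each treatment, kept the sign of all 18 folds and called 0 genes. The endothelial-like and astrocyte-like sums rest on 4 to 23 and 7 to 22 wells per mouse.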
